A study of Arabidopsis thaliana with 44 samples.

Results

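The segment described here is a stretch of the long arm of Arabidopsis chromosome 5 that surrounds the dormancy gene DOG1. Its members are the measured loci from AT5G40700 to AT5G45890 in locus order. That range holds 600 loci, of which 8 were left out by the selection rule and 592 of the 27827 measured probe sets remain. DOG1 itself is among the loci left out, so its level is not analysed here. The segment was chosen by measured values of these same arrays, the log2 differences between NIL DOG1 and the other lines. Those differences are therefore given as a description, without a test.

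A near isogenic line (NIL) carries a chromosome segment around a chosen locus in a background that it otherwise shares with its sister lines. NIL DOG1, NIL DOG3 and NIL DOG6 are each named for a DELAY OF GERMINATION locus. The mother plants ripened their seed at 15C, under low nitrate (N0), at 20C, under low light (LL), or under SL, the standard light. The labels name 20C as control of both 15C and N0, and SL as control of LL. RNA came from dry seed directly after harvest, and each replicate pooled 4 plants grown in randomized blocks. Each of the 15 groups was hybridized to 3 arrays (2 for NIL DOG3 under N0), which gave 15 arrays of NIL DOG1, 14 of NIL DOG3 and 15 of NIL DOG6. The labels give neither the donor nor the recipient of the introgressions, and each line is a single NIL.

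Genes on such a segment are linked to one another and travel with the locus for which a line was selected. DOG1 encodes a protein that sets the depth of primary dormancy in the ripening seed, and cool seed maturation is known to deepen that dormancy. A line difference at a linked gene therefore says nothing of a part in dormancy.

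Of the 592 members, 582 were listed in the RefSeq table of assembly TAIR10.1, which gave 208 of them a symbol. The table classed 567 as protein coding, 4 as lncRNA, 4 as ncRNA, 4 as miRNA, 2 as snoRNA and 1 as a transcribed pseudogene. All values are log2 values of hybridization signal after RMA normalization, and the sequence of the lines under the probes was not analysed here. Across all arrays single values lay between 1.07 and 12.95. Of the members, 339 had a mean level below 4.28, the median of all probe sets, so many of them sit near the low end of the scale. The median mean level was 3.50 over the members. Probe sets of WNK8 and its neighbour AT5G41992 held identical values on every array, so those loci cannot be told apart.

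The seed identity of the material was checked on 5 seed transcripts, SESA1, OLEO1, CRU3, EM1 and EM6, which lay between 10.73 and 12.64 on every array. The green tissue markers RBCS1A, CAB1 and CAB3 had array medians of 7.20, 3.13 and 3.91, and levels of different probe sets are not compared. Markers of pollen were present on the arrays, and their values are given beside the light results below. In whole seeds, fewer cells of a type and less RNA per cell cannot be told apart.

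Along the segment, 37 members were separated between the lines, meaning that every NIL DOG1 array lay above the highest, or below the lowest, of the 29 arrays of NILs DOG3 and DOG6. These were 20 members higher and 17 lower in NIL DOG1. They make up 6.25% of the members, against 0.323% of all probe sets. Over all probe sets 90 were separated, 73 of them on chromosome 5, 13 on chromosome 4 and 4 on chromosome 1. Since the segment was chosen on this contrast, nothing is read from the excess.

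**Figure D1:**
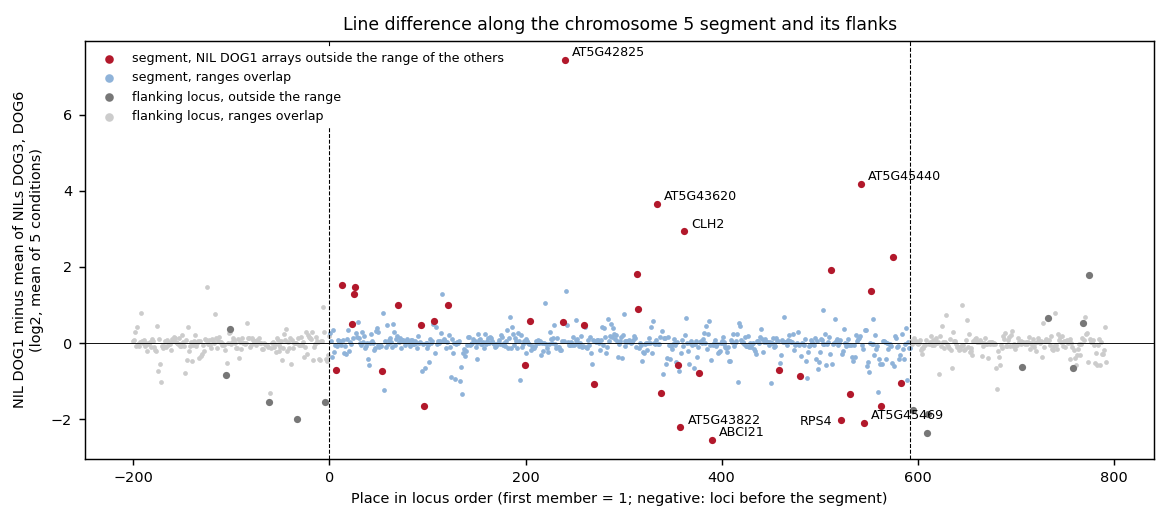
The log2 difference between NIL DOG1 and the mean of NILs DOG3 and DOG6 (vertical axis, mean of the 5 within-condition differences) for each locus in locus order (horizontal axis), with 200 measured loci on each side of the segment (dashed lines). Red points are the 37 separated members, and the highest of them, AT5G42825, stands at 7.44.

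Separated members were scattered among loci that differed little. The median size of the log2 difference was 0.106 over the members, 0.0967 over the 200 loci before the segment, 0.0939 over the 200 loci after it and 0.059 over all probe sets. A log2 difference of at least 1 was reached by 31 members, 15 higher and 16 lower in NIL DOG1, and 22 of these were separated. Over all 27827 probe sets 121 reached it, as did 6 of the 200 loci before and 5 of the 200 after. Divided into runs of 50 members, each run held between 0 and 5 separated ones. The run from AT5G44230 to AT5G44582 held 0, and the longest stretch without a separated member was 77 members. Only 2 pairs of separated members were direct neighbours, and each pair moved the same way. RPL27, a plastid ribosomal protein gene, and AT5G40960 were higher in NIL DOG1 by 1.29 and 1.46. AT5G43450, which encodes a protein related to ACC oxidase, and AT5G43460 were higher by 1.82 and 0.91.

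The ends of the segment did not coincide with an abrupt change in the differences. The first loci inside, AT5G40700, AT5G40710 and AT5G40720, had log2 differences of 0.26, 0.05 and -0.36 between NIL DOG1 and the other lines. The loci just outside, AT5G40670, AT5G40680 and AT5G40690, had -0.46, -0.31 and 0.20. At the far end, SCRL27, AT5G45880 and SAG12 inside had 0.02, -0.13 and -0.14, against 0.06, -0.03 and -1.76 for APG7, AT5G45910 and AT5G45920 outside. In the flanks, 5 of the 200 loci before and 8 of the 200 loci after were separated, among them PTR3 at -1.85 and AT5G40400 at -1.99.

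The largest difference of the segment was at AT5G42825, a protein-coding locus without a symbol in the table. On the 15 NIL DOG1 arrays its log2 level had a low of 10.20, a median of 10.33 and a high of 10.59. On the 29 arrays of NILs DOG3 and DOG6 it had a low of 1.97, a median of 2.44 and a high of 5.32. The mean log2 difference was 7.44. The arrays of NILs DOG3 and DOG6 were not uniform: 22 lay between 1.97 and 2.69, while 7 lay between 4.05 and 5.32, 4 of them of NIL DOG3 and 3 of NIL DOG6. On those 7 arrays AT5G45440, the member with the next largest difference, was between 1.72 and 2.56, and on the other 22 it was between 1.79 and 2.40. The mean difference includes those 7 arrays, and whether they held RNA of another line was not tested.

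At a further group of members the other lines lay near the low end of the scale. The table holds no background level or detection call, so whether these loci and AT5G42825 were detected in NILs DOG3 and DOG6 was not tested, and the low end of the scale limits these log2 differences. AT5G45440 had log2 levels of 5.73, 6.35 and 6.65 (low, median, high) in NIL DOG1, against 1.72, 2.12 and 2.56 in NILs DOG3 and DOG6. AT5G43620, also called PCFS5 and related to an mRNA end-processing factor, had 6.27, 6.93 and 7.77 in NIL DOG1, against 2.63, 3.25 and 4.19 in NILs DOG3 and DOG6. AT5G45730 had 4.22, 4.80 and 5.20 in NIL DOG1, against 1.96, 2.37 and 3.19 in the other lines. The mean log2 differences were 4.19, 3.65 and 2.25, and no array of NIL DOG1 overlapped an array of the other lines at these loci.

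CLH2, which encodes a chlorophyllase, and RTL3, which encodes an RNase III-like protein, were also higher in NIL DOG1. CLH2 had log2 levels of 7.02, 7.51 and 7.87 (low, median, high) in NIL DOG1, against 4.01, 4.57 and 5.07 in NILs DOG3 and DOG6, a mean difference of 2.94. RTL3 had 5.25, 5.62 and 6.16 in NIL DOG1, against 3.41, 3.67 and 4.22 in the other lines, a mean difference of 1.92. At both loci the NIL DOG1 arrays stood apart from all others.

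Smaller separated differences in the same direction included AT5G41800, an amino acid transporter family gene, at 1.00, XPB1, a helicase of nucleotide excision repair, at 0.99, and IPK1, an enzyme of phytate synthesis, at 0.55. They also included TRX3, a cytosolic thioredoxin, at 0.48, TOM20-4, a mitochondrial import receptor, at 0.50, and BPC6, a GAGA-binding transcriptional regulator, at 0.59. The smallest difference of a separated member was 0.48. AT5G42830, an HXXXD-type acyltransferase gene next to AT5G42825, differed by 1.37, and although its pooled ranges overlapped it was separated within each of the 5 conditions.

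**Figure D2:**
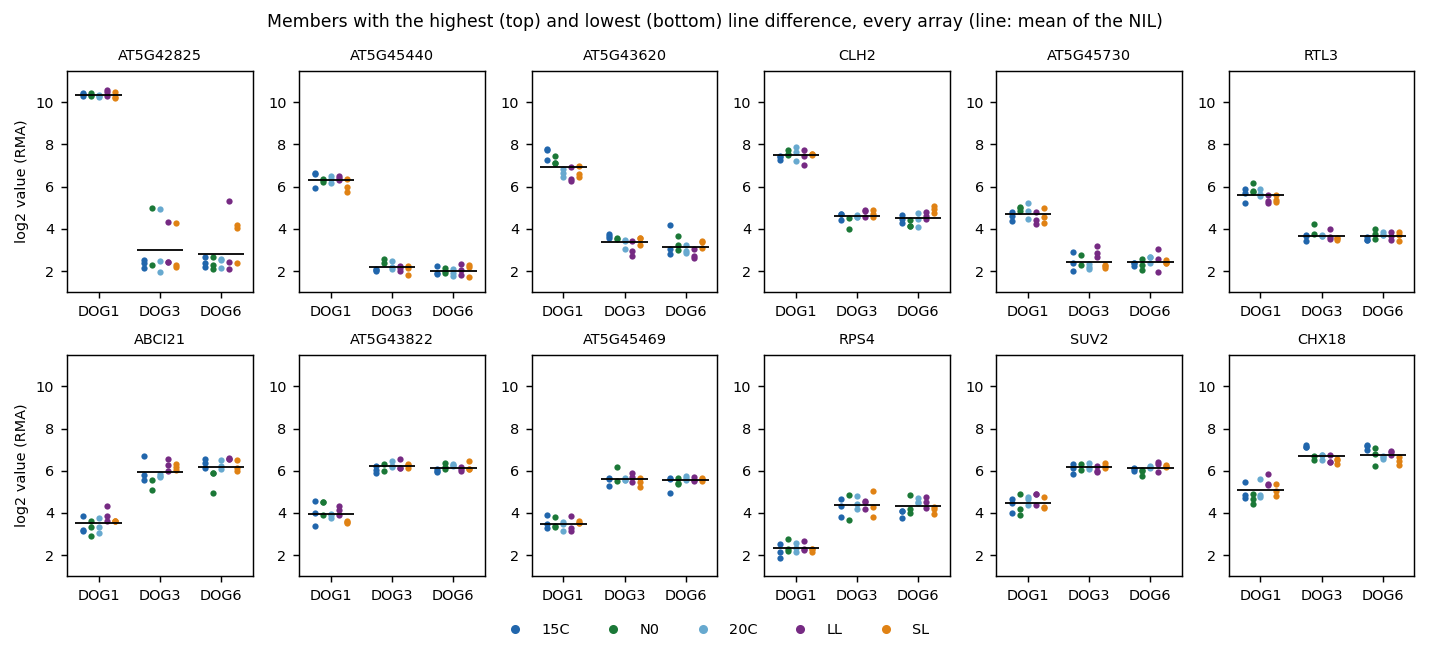
Log2 values on every array for the 6 members highest (top) and the 6 members lowest (bottom) in NIL DOG1 relative to the other lines, with 1 point per array coloured by growth condition and a line at the mean of each NIL. In each panel the NIL DOG1 points lie apart from those of NIL DOG3 and NIL DOG6, and in the panel of AT5G42825, 7 points of the other lines lie between 4.05 and 5.32.

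The line differences on the lower side reached -2.53. ABCI21, of the ABC transporter I family, had log2 levels of 2.93, 3.61 and 4.32 (low, median, high) in NIL DOG1, against 4.92, 6.13 and 6.72 in NILs DOG3 and DOG6, a mean difference of -2.53. AT5G43822 had 3.37, 3.91 and 4.56 in NIL DOG1, against 5.92, 6.19 and 6.56 in the other lines, a mean difference of -2.21. In the TAIR10.1 table AT5G43822 overlaps AT5G43820, a pentatricopeptide repeat gene that differed by -0.74, so signal at these loci may not be fully separate. AT5G45469 differed by -2.09.

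RPS4, an intracellular immune receptor of the TIR-NBS-LRR class, was near the low end of the scale in NIL DOG1, which likewise limits its difference. Its log2 level had a low of 1.86, a median of 2.27 and a high of 2.76 in NIL DOG1, against 3.67, 4.30 and 5.06 in NILs DOG3 and DOG6, a mean difference of -2.02. RRS1, which lies beside RPS4 and encodes its partner in recognition, differed by -0.30 and was not separated. CHX18, a cation/proton exchanger, differed by -1.65, and DCP5-L, related to an mRNA decapping factor, by -1.32. AT5G41920, a GRAS family gene known as SCL23, differed by -1.34 and AT5G45580 by -1.28, each with overlapping ranges. WPP1 (-1.07), MEE62 (-1.06), CEST (-0.72) and AGO10 (-0.59), an Argonaute gene, were separated.

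The difference was close to the same in every growth condition for most of the large members. AT5G42825 differed by 8.01 at 15C, 7.34 under N0, 7.52 at 20C, 7.28 under LL and 7.07 under SL. RPS4 differed by -1.95 at 15C, -1.89 under N0, -2.15 at 20C, -2.07 under LL and -2.03 under SL. CHX18 varied more, with -2.12 at 15C, -1.99 under N0, -1.58 at 20C, -1.18 under LL and -1.38 under SL. AT5G40960 differed by 2.24 under N0, against 0.96 to 1.48 in the other 4 conditions.

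**Figure D3:**
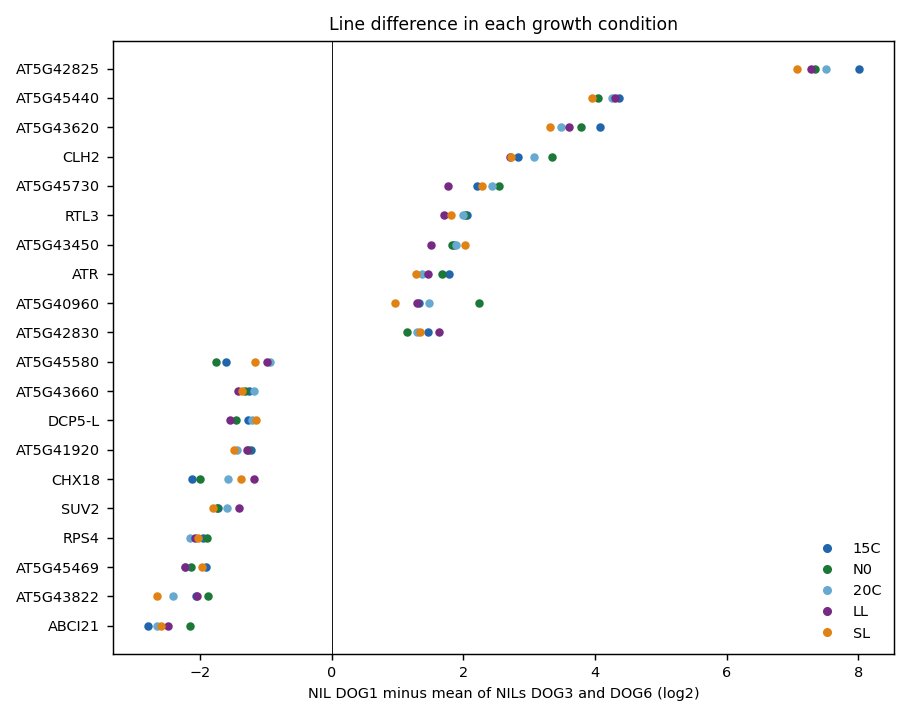
The log2 difference between NIL DOG1 and the mean of NILs DOG3 and DOG6 (horizontal axis) in each of the 5 growth conditions (coloured points) for the 10 members highest and the 10 lowest in NIL DOG1. All points of a member fall on the same side of zero, and AT5G42825 ranges between 7.07 and 8.01.

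Within single conditions, where 3 NIL DOG1 arrays faced 6 arrays of the other lines (5 under N0), more members were separated, and so were more probe sets overall. At 15C, 132 members were separated, 54 higher and 78 lower in NIL DOG1, against 5.17% of all probe sets. Under N0 there were 127 (58 higher, 69 lower), against 5.73% of all probe sets, and at 20C 131 (59 higher, 72 lower), against 5.93%. Under LL there were 117 (57 higher, 60 lower), against 4.5% of all probe sets, and under SL 142 (70 higher, 72 lower), against 6.45%. In all 5 conditions 55 members were separated (9.29%), against 0.622% of all probe sets, and in none of them 354 (59.8%), against 79.7% of all probe sets. The sign of the difference was the same in all 5 conditions for 238 members (40.2%), against 17.4% of all probe sets, 32% of the loci before and 36% of the loci after the segment.

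Between any 2 conditions, which share no arrays, Pearson's r of the log2 differences over the 592 members was 0.888 to 0.931. Over all probe sets it was 0.453 to 0.578. The points share the lines and the probe sets, and loci are not independent replicates, so these correlations describe the arrays only. The segment was chosen on this contrast, and Pearson's r gives most weight to large differences, such as 7.44 at AT5G42825. Nothing is read from the gap between members and all probe sets.

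NIL DOG6 and NIL DOG3 were compared with a test, since this contrast itself did not choose the segment. Its arrays were the comparison arrays of the contrast that did, so the counts are not independent of that choice. Here 8 members were higher and 16 lower in NIL DOG6 than in NIL DOG3 (limma, Benjamini-Hochberg adjusted p under 0.05 over all probe sets), against 4.28% higher and 5.34% lower of all probe sets. The shares of members, 1.35% and 2.7%, were below that background, but they were not compared at like signal level and members were dimmer than all probe sets. With each array centred on its median, 16 members were higher and 11 lower, so the split between directions depends on the scaling. No called member reached a 2-fold difference, against 138 of all 27827 probe sets. The lowest values were AT5G41071 at -0.52 ± 0.11 (SE, adjusted p = 0.00109), CIP1, a partner of the light-signalling regulator COP1, at -0.45 ± 0.09 (0.00051), AT5G44920, a TIR-KASH protein gene, at -0.44 ± 0.11 (0.00853) and CAD1 at -0.44 ± 0.12 (0.0146). AT5G43670 was higher in NIL DOG6 by 0.32 ± 0.09 (adjusted p = 0.0132). None of these calls was kept in every alternative, and that of CAD1 was lost with all arrays numbered 1 left out. With replicates or single arrays left out, the differences were -0.64 to -0.40 for AT5G41071, -0.53 to -0.39 for CIP1 and -0.50 to -0.35 for AT5G44920. They were -0.55 to -0.34 for CAD1 and 0.22 to 0.40 for AT5G43670. AT5G41761, at 0.42 ± 0.13 (adjusted p = 0.0366), lost its call with any of 12 single arrays left out, with adjusted p between 0.052 and 0.107. AT5G42200 at 0.35 ± 0.10 and AT5G44380 at 0.29 ± 0.08 lost theirs without NIL DOG3 N0 replicate 2, with adjusted p = 0.071 and 0.0873. The count of 24 was 14 without that array and 15 without NIL DOG6 20C replicate 2. Of the 37 members separated for NIL DOG1, 2 were called here, G6PD6 and IPK1, each at -0.21, against 9.61% of all probe sets in either direction. Separation already needs the arrays of both lines on 1 side of NIL DOG1, so nothing is read from that count.

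The NLR immune receptor genes, which encode intracellular sensors of pathogen effectors, have 18 members here, of which 14 had a mean level below the median of all probe sets. Only RPS4 was separated, and the median log2 difference of the group was -0.11, against 0.0013 over all members. TTR1 differed by -0.49, AT5G43730 by -0.42 and LAZ5 by -0.35, with overlapping ranges. Among the 7 genes of DNA repair and replication, ATR and XPB1 were higher and SUV2 was lower in NIL DOG1. ATR encodes the kinase of the DNA damage checkpoint, and SUV2 its ATRIP-like partner. ATR had log2 levels of 5.53, 5.88 and 6.22 (low, median, high) in NIL DOG1, against 3.88, 4.42 and 4.82 in NILs DOG3 and DOG6. SUV2 had 3.88, 4.45 and 4.92 in NIL DOG1, against 5.75, 6.15 and 6.40 in the other lines. The partners thus stood apart between the lines in opposite directions, SUV2 by -1.65.

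Among 6 genes of redox and glutathione metabolism, G6PD6, a cytosolic glucose-6-phosphate dehydrogenase, and GSTT1, a theta-class glutathione transferase, were separated and lower in NIL DOG1. G6PD6 had log2 levels of 7.96, 8.10 and 8.33 in NIL DOG1, against 8.53, 8.87 and 9.06 in NILs DOG3 and DOG6. The 3 theta-class genes lie close together, and GSTT1 (-0.72) and GSTT2 (-1.23) were lower while GSTT3 (0.78) was higher. The ranges of GSTT2 and GSTT3 overlapped, and probe sets of such closely related genes may not be fully specific.

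None of the 8 hormone genes was separated over all arrays. AOS, the allene oxide synthase of jasmonate synthesis, had log2 levels of 5.70, 6.08 and 6.55 in NIL DOG1, against 4.53, 5.04 and 5.75 in the other lines, and it was separated within each of the 5 conditions. PYL11 and PYL12, neighbouring genes of abscisic acid receptors at the far end of the segment, differed in opposite directions, by 0.40 and -0.97. NPR3, a salicylic acid receptor gene, differed by -0.58. None of the 12 transcription factor genes, 4 phosphate transporter genes or 2 plant defensin genes was separated.

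The growth conditions were not used to choose the segment, so the responses of its members were tested as the mean of the 3 within-line differences. Relative to 20C, seed ripened at 15C had 65 members higher and 53 lower (limma, Benjamini-Hochberg adjusted p under 0.05), against 12.5% higher and 12.8% lower of all probe sets. The shares of members, 11% and 8.95%, were below the background. Members were dimmer, with a median mean level of 3.50 against 4.29 over all probe sets. No share was compared at like signal level, here or for N0 and LL, so the shares do not show a weaker response of the segment. Of the 118 called members, 113 had the same direction in each NIL, and 3 changed at least 2-fold. Over all 27827 probe sets, 223 were called and changed at least 2-fold. Counts with the same direction in each NIL were not set against all probe sets, here or for N0 and LL. The mean log2 level of the 4 pollen markers named below had a median of 5.85 at 15C, 6.54 under N0 and 6.53 at 20C, and its part in these comparisons was not tested.

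AT5G45280, which encodes a pectin acetylesterase of the cell wall, had the largest rise at 15C. Its log2 level was 6.67 ± 0.14 at 15C and 4.29 ± 0.21 at 20C in NIL DOG1 (SD, n = 3 arrays each). In NIL DOG3 it was 6.12 ± 0.24 at 15C and 4.49 ± 0.30 at 20C, and in NIL DOG6 6.09 ± 0.30 at 15C and 3.89 ± 0.40 at 20C. Over the lines the 15C arrays lay between 5.75 and 6.76 and the 20C arrays between 3.48 and 4.84, without overlap. The log2 difference was 2.07 ± 0.13 (SE, 4.19-fold, adjusted p = 4.32e-14). Its log2 change under N0 was 0.80 in NIL DOG1, -0.20 in NIL DOG3 and 0.75 in NIL DOG6.

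CAD1, the phytochelatin synthase gene of heavy-metal tolerance, rose by 0.97 ± 0.15 (SE, adjusted p = 5.88e-06). LHT1, an amino acid transporter gene, had log2 levels of 10.12 to 10.35 at 15C, against 9.46 to 9.78 at 20C, a rise of 0.65 ± 0.05 (adjusted p = 1.29e-12) without overlap. The defensin gene PDF1.2 rose by 0.71 ± 0.17 (adjusted p = 0.00206), with levels near the low end of the scale, and the other listed defensin gene, PDF1.2c, changed by -0.03 (adjusted p = 0.905). AT5G41830 rose by 0.99 and AT5G45630 by 0.73. The call of PDF1.2 was lost with all arrays numbered 2 left out. With replicates or single arrays left out, the rise of PDF1.2 was 0.50 to 0.86.

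Lower at 15C were AT5G41670, a 6-phosphogluconate dehydrogenase gene of the pentose phosphate pathway, and the acyltransferase gene AT5G42830. AT5G41670 had log2 levels of 4.91 to 5.90 at 15C, against 6.50 to 6.89 at 20C, a difference of -1.24 ± 0.16 (SE, adjusted p = 3.46e-07). AT5G42830 differed by -1.17 ± 0.11 (adjusted p = 6.04e-10), and within each line its 15C arrays lay below its 20C arrays. GLK2, a transcription factor of chloroplast development, differed by -0.69 ± 0.08 (adjusted p = 4.45e-08). AT5G40855 (-0.91), the NLR gene AT5G45060 (-0.69) and AT5G43820 (-0.57) were also lower.

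Under N0, 26 members were higher and 23 lower than at 20C, against 5.86% higher and 6.07% lower of all probe sets, and the shares of members were 4.39% and 3.89%. Of the 49, 45 had the same direction in each NIL. APS4, an ATP sulfurylase gene of sulfate assimilation, had log2 levels of 6.59 to 7.55 under N0, against 5.87 to 6.78 at 20C, a rise of 0.71 ± 0.10 (SE, adjusted p = 2.22e-06). AT5G44920 rose by 0.69, AT5G45630 by 0.65, AT5G45580 by 0.65 and AT5G44360, of the berberine bridge enzyme-like family, by 0.62. The mean log2 level of AT5G45580 under N0 and at 20C was 3.19 and 3.09 in NIL DOG1. It was 4.91 and 4.07 in NIL DOG3, and 4.97 and 3.97 in NIL DOG6. Its call was lost with all arrays numbered 1 left out. With replicates or single arrays left out, the rise of AT5G44920 was 0.43 to 0.85 and that of AT5G45580 0.40 to 0.87. AT5G41830, at 0.53, lost its call with any of 5 single arrays left out, with adjusted p between 0.0535 and 0.0659.

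The largest change under N0 was again at AT5G42830. Its log2 level was 5.36 ± 0.24 under N0 and 7.08 ± 0.23 at 20C in NIL DOG1 (SD, n = 3 each). It was 4.21 ± 0.33 (n = 2) under N0 and 5.66 ± 0.24 (n = 3) at 20C in NIL DOG3, and 4.23 ± 0.57 under N0 and 5.90 ± 0.13 at 20C in NIL DOG6 (n = 3 each). In each line the N0 arrays lay below the 20C arrays, with a log2 difference of -1.62 ± 0.12 (SE, 3.06-fold, adjusted p = 5.73e-12). AT5G41670 differed by -1.49, AT5G40855 by -0.83, AT5G41761 by -0.75, UBC18, a ubiquitin-conjugating enzyme gene, by -0.72 and GLK2 by -0.71. The lines were unlike at AT5G40855, with mean log2 levels under N0 and at 20C of 4.85 and 5.01 in NIL DOG1. They were 4.30 (n = 2) and 5.84 in NIL DOG3, and 4.69 and 5.49 in NIL DOG6. With replicates or single arrays left out, the difference of AT5G41761 was -0.86 to -0.60. The 15C and N0 comparisons share the 20C arrays, so their likeness is not read as a result.

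**Figure D4:**
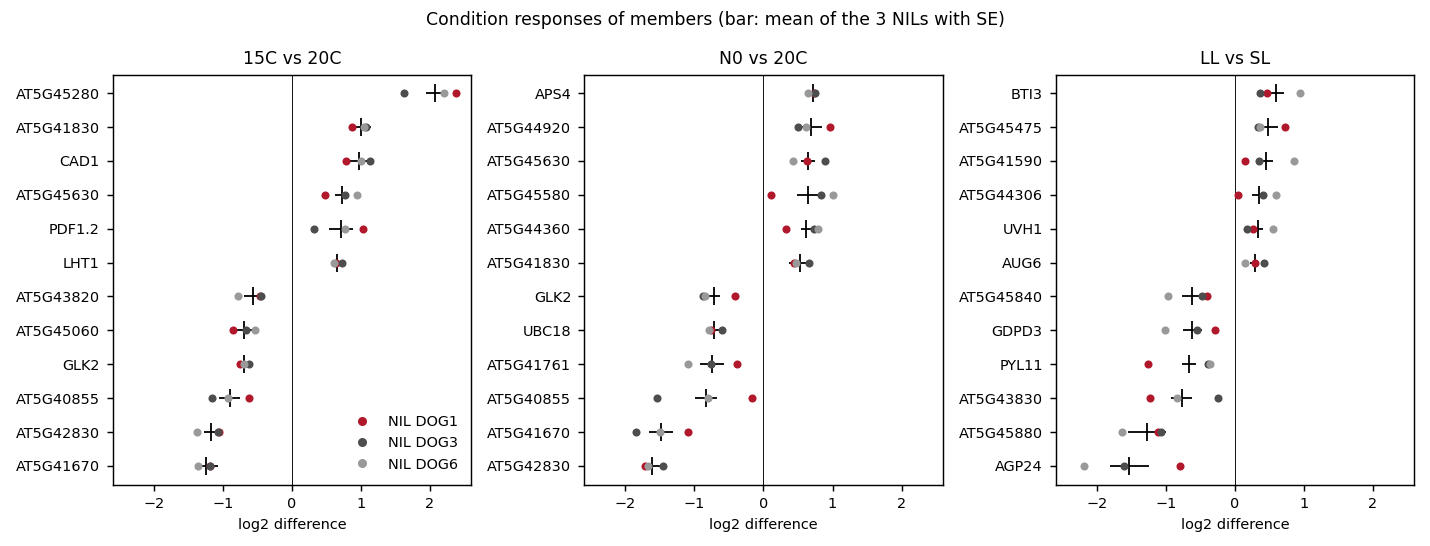
Log2 differences of the named members for 15C and N0 against 20C and for LL against SL (horizontal axes), with the mean of the 3 NILs and its SE as a black cross and each NIL's own difference as a coloured point. AT5G45280 at 15C (2.07) and AT5G42830 under N0 (-1.62) have all 3 lines on the same side of zero.

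Under LL, 11 members were higher and 15 lower than under SL, against 2.73% higher and 3.63% lower of all probe sets, and the shares of members were 1.86% and 2.53%. Of the 26, 25 had the same direction in each NIL and 2 changed at least 2-fold, against 134 of all 27827 probe sets. With the 15 groups' spread replaced by that of the LL and SL arrays alone, 12 members were called. AGP24, an arabinogalactan protein gene, had log2 levels of 5.32, 6.28 and 7.60 (low, median, high) under LL, against 6.56, 7.83 and 9.25 under SL, a difference of -1.53 ± 0.28 (SE, adjusted p = 0.000851). AT5G45880, an Ole e 1-like pollen allergen gene, had 6.61, 7.68 and 8.04 under LL, against 7.61, 8.51 and 10.30 under SL, a difference of -1.28 ± 0.28 (adjusted p = 0.00366). The ranges under LL and SL overlapped at both.

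Pollen markers moved in the same direction as these genes. The mean log2 level of AGP6, AGP11, AGP23 and VGD1 was 4.82 to 5.98 on the LL arrays, against 5.81 to 8.58 on the SL arrays. The highest SL values of AGP24 and AT5G45880 were on arrays numbered 2. Without the 3 SL arrays of that number, the difference of AGP24 was -0.99 (adjusted p = 0.0155) and that of AT5G45880 -0.74 (adjusted p = 0.046), and 16 members were called. With all arrays numbered 2 left out, the calls of AGP24 and AT5G45880 were lost. That of AT5G45880 was also lost with only the LL and SL arrays in the fit. The part of pollen RNA in the differences of both genes was not tested. AT5G45840, also called MDIS1, a receptor kinase gene of pollen tube guidance, differed by -0.62 (adjusted p = 0.009), and by -0.41 (adjusted p = 0.135) without those arrays.

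The abscisic acid receptor gene PYL11 had the smallest adjusted p of the members in the light comparison. Its log2 level was 6.48 ± 0.22 under LL and 7.74 ± 0.05 under SL in NIL DOG1 (SD, n = 3 each). In NIL DOG3 it was 6.97 ± 0.16 under LL and 7.36 ± 0.11 under SL, and in NIL DOG6 6.88 ± 0.48 under LL and 7.24 ± 0.12 under SL. The mean difference was -0.67 ± 0.10 (SE, adjusted p = 5.5e-05), and -0.63 (adjusted p = 0.00182) without the SL arrays numbered 2. PYL12 differed by -0.56 ± 0.15 (adjusted p = 0.0147), a call that was lost without NIL DOG6 LL replicate 1 (adjusted p = 0.0511). Its call was also lost with only the LL and SL arrays in the fit, and with all arrays numbered 1 or all numbered 3 left out. With replicates or single arrays left out, the PYL12 difference was -0.81 to -0.29. Also lower under LL were AT5G43830, an aluminium-induced protein gene, by -0.77, and GDPD3, a glycerophosphodiester phosphodiesterase gene, by -0.62. Without the SL arrays numbered 2 these were -0.54 (adjusted p = 0.0294) for AT5G43830 and -0.34 (adjusted p = 0.0421) for GDPD3. The call of GDPD3 was lost with only the LL and SL arrays in the fit. With all arrays numbered 2 left out, the calls of AT5G43830 and GDPD3 were both lost.

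Higher under LL were BTI3, a reticulon gene, by 0.59 ± 0.12 (SE, adjusted p = 0.00216), AT5G41590 by 0.45, UVH1, the XPF endonuclease of DNA repair, by 0.33 and AUG6, an augmin subunit gene, by 0.28. The call of AUG6 was lost with only the LL and SL arrays in the fit and with all arrays numbered 2 or all numbered 3 left out, with adjusted p up to 0.252. AT5G45475 (0.47) and AT5G44306 (0.35) had adjusted p of 0.0417 and 0.0488, and those calls were lost with any of 10 and 14 single arrays left out, with adjusted p up to 0.112 and 0.119. UVH1 and AT5G41590 were not called without the SL arrays numbered 2 (adjusted p = 0.0685 and 0.0972). The call of BTI3 was lost with all arrays numbered 1 left out (adjusted p = 0.141).

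**Figure D5:**
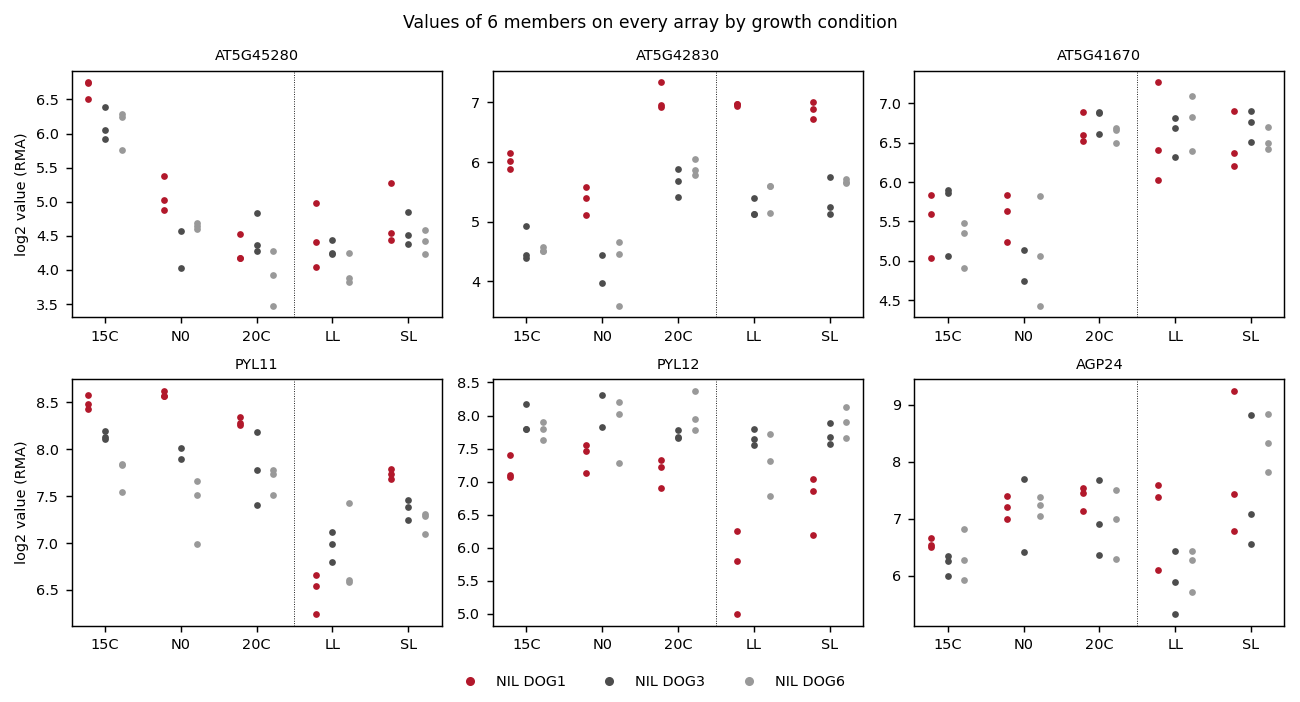
Log2 values of 6 members on every array (1 point each, coloured by NIL) under 15C, N0 and 20C and, right of the dotted line, under LL and SL. The 15C points of AT5G45280 lie between 5.75 and 6.76, above its 20C points, and the LL points of PYL11 in NIL DOG1 lie below its SL points.

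The gene groups are given here by their calls in the condition comparisons, where 25.3% of all probe sets were called in either direction at 15C, 11.9% under N0 and 6.36% under LL. Of the 18 NLR genes, 0 were higher and 1 was lower at 15C, while 0 were called under N0 or LL, and their median log2 differences were -0.07 at 15C, -0.03 under N0 and 0.02 under LL, against 0.0048, 0.0082 and 0.014 over all probe sets. Of the 8 hormone genes, AOS rose by 0.35 (adjusted p = 0.000706) at 15C, while BKI1, an inhibitor of the brassinosteroid receptor, fell by 0.39 (adjusted p = 0.00484) and RAN1, a copper transporter of ethylene signalling, fell by 0.22 (adjusted p = 0.000328). None of the 8 was called under N0, and PYL11 and PYL12 were the calls under LL. The 15C call of BKI1 was lost with all arrays numbered 1 left out (adjusted p = 0.076). Of the 12 transcription factor genes, GLK2 was the call at 15C and under N0, and none was called under LL. Of the 7 DNA repair and replication genes, RPA70C, a subunit of the single-strand binding protein, rose by 0.45 and ATR fell by 0.35 at 15C. The mean log2 level of ATR at 15C and 20C was 5.90 and 5.99 in NIL DOG1. It was 4.19 and 4.66 in NIL DOG3, and 4.06 and 4.55 in NIL DOG6. The 15C call of ATR was lost with all arrays numbered 3 left out, and that of RPA70C with all numbered 1 left out (adjusted p = 0.0534). ATR under N0, at -0.27 (adjusted p = 0.0488), lost its call with any of 12 single arrays left out (adjusted p up to 0.233).

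Of the 6 redox genes, CAD1 was the call at 15C, and HOT5, the nitrosoglutathione reductase gene, was called under N0 at -0.13 (adjusted p = 0.0493), a call lost with any of 11 single arrays left out (adjusted p up to 0.13). Of the 4 phosphate transporter genes, PHT4;6 was called under N0 at 0.40 (adjusted p = 0.0276), a call lost with any of 7 single arrays left out (adjusted p up to 0.12). Of the 37 separated members, 10 were called at 15C, 5 under N0 and 0 under LL, in either direction, to be read against the same shares of all probe sets. AT5G43620 rose by 0.54 and DCP5-L by 0.52 at 15C, and AGO10 fell by 0.39.

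Whether the response of a member differed in NIL DOG1 was tested as the response in NIL DOG1 minus the mean response in NILs DOG3 and DOG6. No member was called by limma for 15C, against 0.00359% of all probe sets, and 31 (5.24%) had an unadjusted p under 0.05, against 3.94% of all probe sets. For N0, 0 members were called, against 0% of all probe sets, with 38 (6.42%) at an unadjusted p under 0.05, against 5.46% of all probe sets. For LL, 0 were called, against 0%, with 64 (10.8%) at an unadjusted p under 0.05, against 7.28% of all probe sets. The median SE of such a difference was 0.196 for 15C and LL and 0.2 for N0, so small differences of response were not detectable with these arrays.

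The smallest p for 15C were at AT5G44306 and AT5G43150. In NIL DOG1 the log2 values of AT5G44306 were 4.03, 4.05 and 3.97 at 15C, against 2.54, 2.63 and 3.28 at 20C, without overlap. Its log2 change at 15C was -0.12 in NIL DOG3 and 0.28 in NIL DOG6, and the response in NIL DOG1 exceeded their mean by 1.12 ± 0.23 (SE, limma adjusted p = 0.129). Without NIL DOG1 20C replicate 3, the highest of those 20C arrays, the difference was 1.35 (adjusted p = 0.0217). AT5G43150 changed by -0.77 in NIL DOG1, -0.04 in NIL DOG3 and -0.01 in NIL DOG6, a difference of -0.75 ± 0.16 (adjusted p = 0.129).

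For N0 the smallest p were at LURE1.1, a pollen tube attractant gene, with a difference of -0.71 ± 0.19 (SE, limma adjusted p = 0.556), and at AT5G45510, with 0.71 ± 0.21 (adjusted p = 0.751). For LL they were at PYL11, which changed by -1.25 in NIL DOG1, -0.39 in NIL DOG3 and -0.36 in NIL DOG6, a difference of -0.88 ± 0.21 (adjusted p = 0.424), and at AT5G40880, with 0.63 ± 0.17 (adjusted p = 0.512). PYL12 changed under LL by -1.02 in NIL DOG1, -0.05 in NIL DOG3 and -0.62 in NIL DOG6, a difference of -0.68 ± 0.31 (adjusted p = 0.683).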

How the data were processed

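RNA of dry seed was measured on 44 arrays. The authors deposited log2 values after RMA (background correction, quantile normalization and probe summary) per the submitters' processing notes. For the RMA version, array annotation and genome build: not given in the sources used here. Array medians lay between 4.22 and 4.39, so a change of total RNA would not be seen, and the number of arrays limits the precision. Arrays of a group correlated at 0.987 to 0.994.

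Means of the 15 groups were fitted with limma 3.58.1 in R 4.3.3 without a filter or a block (29 residual degrees of freedom, median residual SD 0.199), tested two-sided and adjusted over all 27827 probe sets. Replicates are labelled as biological. Errors after ± are SD over arrays for levels and SE for differences. The fit was tested on simulated data. The line difference is NIL DOG1 minus the mean of NILs DOG3 and DOG6, averaged over 5 conditions. Members and gene lists were chosen with earlier results of these data known.

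Named genes are the 10 highest and 10 lowest line differences, up to 6 called members per direction with the same sign in 3 lines per condition comparison, the 4 largest per direction for NIL DOG6 against NIL DOG3, the 2 smallest p per response difference, and members of the lists. Other members of the separated set were named after their values were seen. Alternatives were other sets of arrays, a filter on dim probe sets, robust eBayes, median centring, 1 of each identical probe set, the replicate number as a fixed or random block, and arrays left out.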

Additional observations from a re-analysis of the deposited data

How the results depend on the processing

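No direction of a named difference reversed under any alternative run. Of 79 named differences, 47 kept their call or size throughout. That count includes the untested line differences, which had no call to lose, and response differences that were never called. Of the 59 tested differences, 31 lost their call in at least 1 alternative and 1 gained a call. The 59 include the response differences, which had no call to lose in the main fit. Replicate numbers were not treated as pairs in the main fit. Of pairs of arrays with the same number within a condition, 12 of 43 had residual correlations over 0.1 (-0.139 to 0.398, median 0.0443). Among pairs with different numbers these were 10 of 86 (median -0.0141). Under SL they were 6 of 9 (median 0.176) against 3 of 18, under LL 3 of 9 against 0 of 18, and under N0 0 of 7 against 2 of 14. Arrays of the same number were thus more alike under SL and LL, and p-values of the light comparison may be too small. With the number within condition as a random block (consensus correlation 0.0266), an alternative chosen after seeing the data, 110 members were called at 15C, 45 under N0, 22 under LL and 26 between NIL DOG6 and NIL DOG3, and of the named members AT5G45475 and AT5G44306 under LL and ATR and HOT5 under N0 lost their calls. With the replicate number as a block, the counts of called members were 117 at 15C, 47 under N0, 27 under LL and 25 between NIL DOG6 and NIL DOG3, and 0 for each response difference. With the block nested in condition, NIL DOG6 against NIL DOG3 gave 19. Leaving out a replicate number removes up to 1 array of each group. With replicates or single arrays left out, the counts ranged between 78 and 114 at 15C, 22 and 52 under N0, 3 and 31 under LL, and 8 and 25 for NIL DOG6 against NIL DOG3, and between 0 and 1 for the response difference at 15C. Only the arrays compared gave 12 members under LL (4 higher, 8 lower), and 16 (5 higher, 11 lower) were called without the 3 SL arrays numbered 2, an alternative chosen after seeing the data. Median centring, which moved the median of all probe sets by at most 0.045, gave 52 higher and 66 lower at 15C, 22 and 23 under N0, 11 and 11 under LL, and 16 and 11 for NIL DOG6 against NIL DOG3. Without dim probe sets the split was 51 and 57 at 15C and 8 and 24 under LL, and with robust eBayes 10 and 22 under LL. The dim filter left out probe sets with a mean level below the median, and many members with them. Its counts thus come from fewer members and are not comparable with those over all members. Requiring a difference of at least 1 left 22 separated members over all arrays, 34 at 15C, 33 under N0, 26 at 20C, 34 under LL and 32 under SL. Against NIL DOG3 alone, 230 were separated under N0, where 3 NIL DOG1 arrays faced only 2. This count, and those below with a replicate number left out, were not set against the same counts over all probe sets. With a replicate number left out, separated members numbered between 44 and 48 over all arrays, 195 and 211 at 15C, 165 and 236 under N0, 186 and 215 at 20C, 182 and 191 under LL, and 202 and 234 under SL, since fewer arrays overlap less often.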
